A study of Saccharomyces cerevisiae with 11 samples.

Results

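PHO5, PHO3, PHO8, PHO84 and PHO89, genes of phosphate scavenging and uptake in Saccharomyces cerevisiae, were described by the nucleosomes of their promoters and open reading frames (ORFs). They were chosen by name, and are 5 of 6002 protein-coding genes on the nuclear chromosomes. For each gene the 600 bp upstream of the start codon (the promoter) and the ORF were measured in all 11 libraries of the series. The libraries came from micrococcal nuclease sequencing (MNase-seq), in which the nuclease digests DNA not protected by nucleosomes and the surviving fragments are counted along the genome.

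In the textbook view of this pathway, the transcription factor Pho4, with Pho2, activates the phosphate genes when phosphate is scarce. In phosphate-rich medium the cyclin-dependent kinase Pho85 with its cyclin Pho80 phosphorylates Pho4 and keeps it out of the nucleus. The PHO5 promoter is a classic model of chromatin regulation, because positioned nucleosomes cover it in the repressed state and are removed on induction. RNA was not measured in these libraries, and the phosphate content of the medium is not given in the sources used here, so the coverage alone does not show whether the genes were repressed.

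All strains were of the BY4742 background and carried both topoisomerases as fusions to an auxin-inducible degron (Top1-AID and Top2-AID), in the controls as well. Strain yTL1245 lacked OsTIR1, the plant F-box protein that auxin needs to have the degron proteins destroyed, and received no auxin. Strain yTL1290 expressed OsTIR1 from the ADH1 promoter (pADH1-OsTIR1), and its culture was divided into an untreated portion and one given 500 uM auxin for 60 min. Cells grew in synthetic complete medium with 2% galactose, were fixed with formaldehyde and were digested as spheroplasts. The nuclease amounts were 0.01171875 U, the low dose, and 0.1875 U, the high dose. The labels give no OsTIR1 (n = 2 at each dose), OsTIR1 untreated (n = 2 at each dose) and OsTIR1 with auxin (1 library labelled low and 2 labelled high). Nothing in the labels says whether replicates came from separate cultures, so p-values measure the spread between these libraries. Topoisomerase protein was not measured, so the depletion itself was not checked here.

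Libraries held 9220720 to 31178329 fragments, with a mean coverage of 111 to 332 fragments per nuclear base. The labelled dose and the name of the deposited file differed for 4 libraries: replicate 2 of untreated OsTIR1 at both doses, and replicate 1 of auxin at both doses. In untreated high replicate 2 the file name also gave another auxin state (the library of disputed auxin state). The mean fragment length separated 6 libraries of 129 to 140 bp (short fragments) from 5 of 149.8 to 162 bp (long fragments). The dose in the file name was high for all 6 short-fragment and low for all 5 long-fragment libraries. The labelled dose differed from this in the 4 libraries named above. The short-fragment libraries were no OsTIR1 high replicates 1 and 2, untreated high replicate 1, untreated low replicate 2, auxin low replicate 1, and replicate 2 of auxin at the high dose. Groups kept their labels. The dose comparison used the 7 libraries without such a disagreement (1 of them, auxin high replicate 2, has no low-dose partner and so does not inform the dose term), and the auxin and strain comparisons used the 6 short-fragment libraries, so that libraries of like digestion were compared.

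Values below are relative coverage, the mean fragment coverage of a feature over the nuclear mean of that library, rDNA left out. A value of 1 is the library average, and since the scale is relative, a gain at one place must be balanced by a loss elsewhere. Promoter nucleosomes were taken as the maxima of the mean profile of the 2 high-dose libraries without OsTIR1, at least 120 bp apart, and are numbered from the start codon outward. This gave 19 windows, each reaching 50 bp to either side of its centre. Of the 19, 4 are called windows and not nucleosomes: the outermost windows of PHO5 and PHO84 and the outer pair of PHO89. In these, smoothed coverage within 50 bp of the centre was highest at the edge in every short-fragment library. Of the 19 windows, 5 are centred in the upstream ORF.

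PHO5 encodes the main secreted acid phosphatase, which releases phosphate outside the cell. It lies on the minus strand of chromosome II at 429548 to 430951 (sacCer3), and 1084 bp separate it from the divergent gene PBY1, so its whole promoter (430952 to 431551) is intergenic. In the short-fragment libraries 3 well-formed nucleosomes stood at -80, -254 and -467.5 bp from the start codon (medians, n = 6). The middle one was placed within 6 bp in all 6 libraries, from -258 to -252. The distances between maxima were 173.5 bp (median, range 172 to 190) for nucleosomes 1 and 2, and 213.5 bp (range 208 to 224) for nucleosomes 2 and 3. The longer distance held a hollow at -356 to -345 where relative coverage fell to 0.239 to 0.392. In the long-fragment libraries the lowest point between these nucleosomes lay at -371 to -370 bp and held 0.557 to 0.916, so the lowest points of the 2 kinds of library did not overlap.

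**Figure D1:**
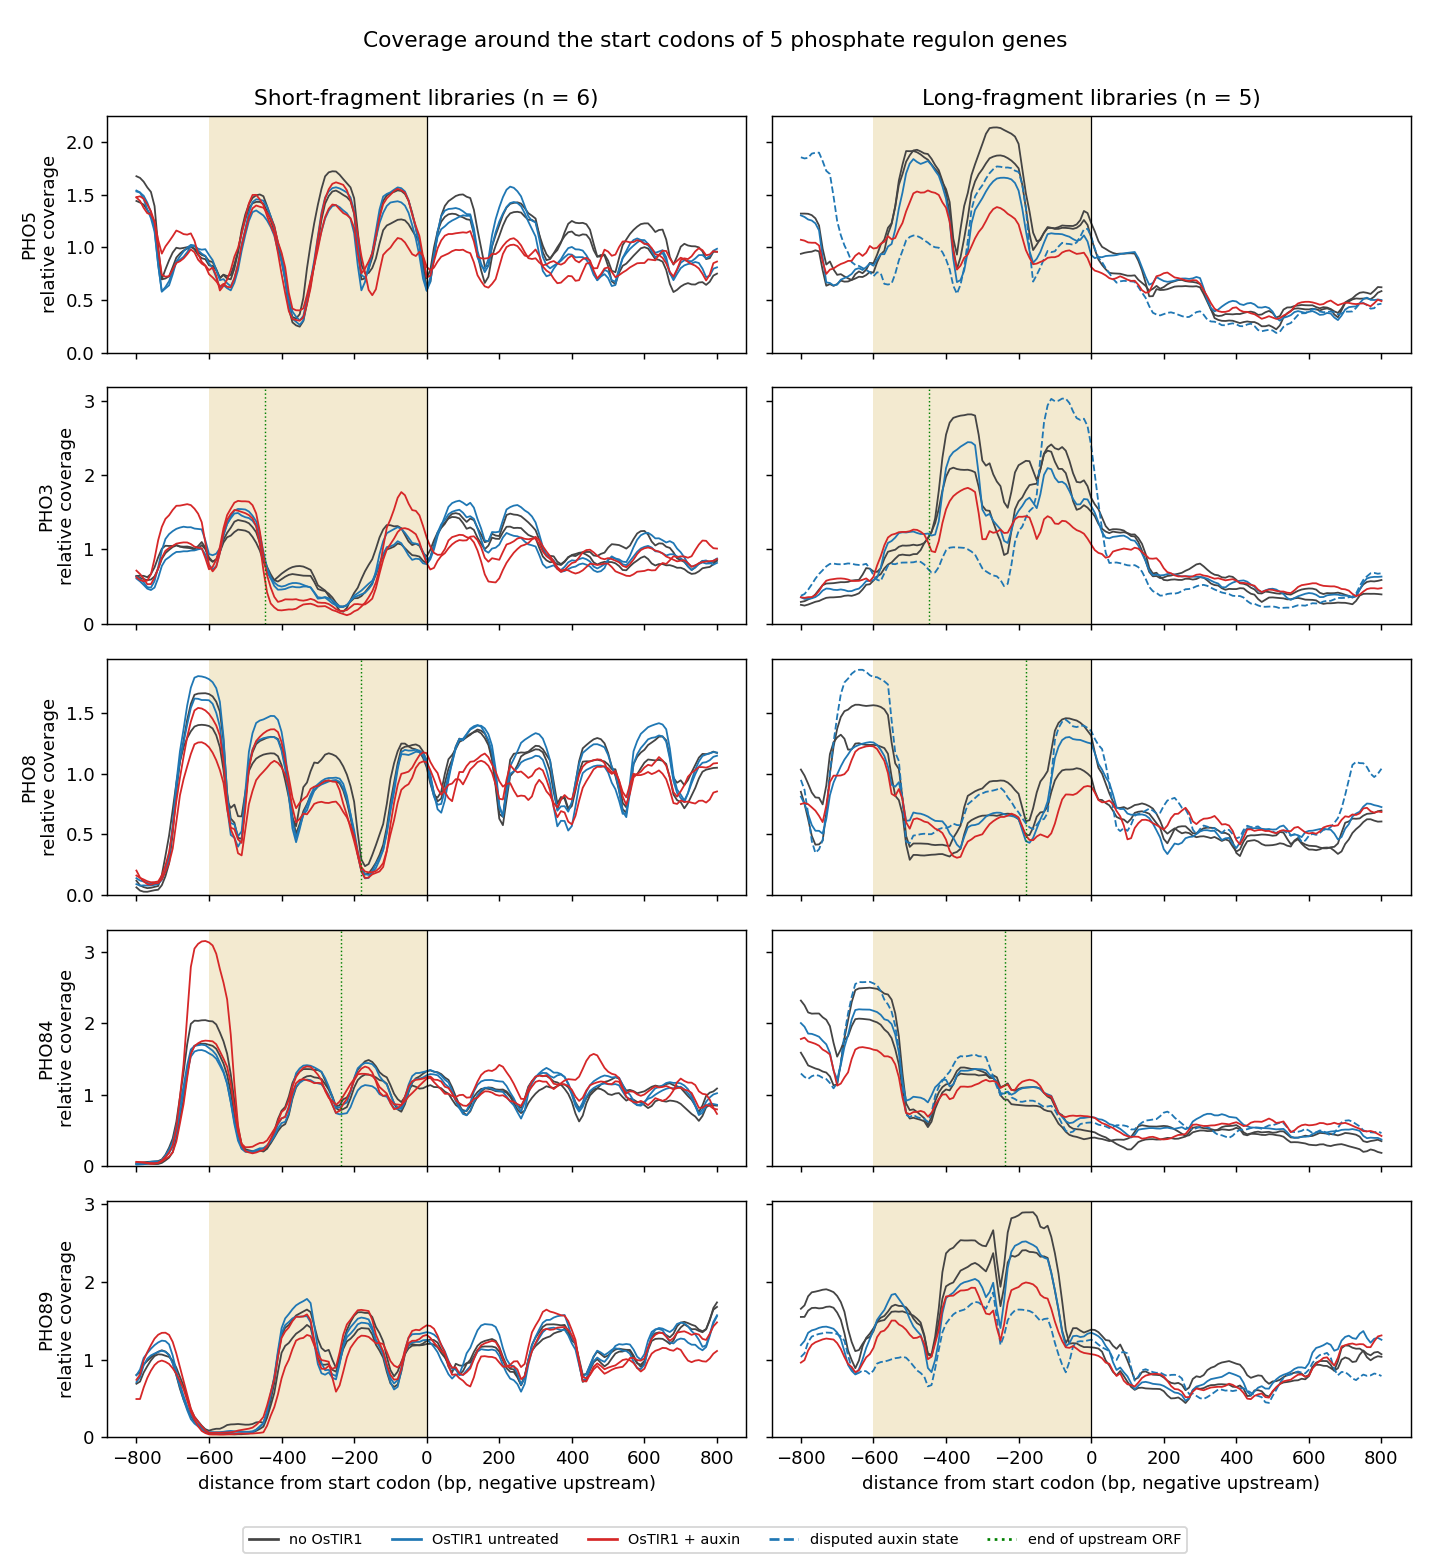
Relative coverage (y axis, library mean = 1) against distance from the start codon in bp (x axis, negative upstream) for the 5 genes, one line per library coloured by state, with the 6 short-fragment libraries on the left and the 5 long-fragment libraries on the right. Shading marks the 600 bp promoter. The 3 PHO5 nucleosomes at -80, -254 and -467.5 bp and the hollow of PHO89 beyond -454 bp can be seen on the left.

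The 3 PHO5 nucleosomes were at or above the library average in every short-fragment library. Nucleosome 1, next to the start codon, had relative coverage of 1.45 and 1.21 without OsTIR1, 1.46 and 1.35 in untreated OsTIR1, and 1.00 and 1.45 with auxin. Nucleosome 2 had 1.43 and 1.63, 1.47 and 1.29, and 1.49 and 1.29 in the same order. Nucleosome 3 had 1.38 and 1.33, 1.22 and 1.32, and 1.34 and 1.28. The 3 states overlapped at nucleosomes 1 and 2, and the low value of nucleosome 1 came from auxin low replicate 1. At nucleosome 3 both values without OsTIR1 lay just above both untreated ones, and the auxin values overlapped each of these states. The windows were found in these libraries without OsTIR1, which biases values upward there. In the long-fragment libraries nucleosome 2 reached 1.83 and 2.10 without OsTIR1, 1.61 in untreated low replicate 1, 1.72 in untreated high replicate 2 and 1.31 with auxin. Nucleosome 3 reached 1.86, 1.85, 1.78, 1.06 and 1.50 in that order, the low value being that of untreated high replicate 2.

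PHO3 encodes a second acid phosphatase, which is regulated by thiamine and not by phosphate, and which follows PHO5 in tandem (427698 to 429101). Both ORFs are 1404 bp long and the genes are close paralogs. How the authors' alignment placed fragments that match both copies is not given in the sources used here, so values in these 2 ORFs are uncertain. The gap between the genes is 446 bp, and the outer 154 bp of the PHO3 promoter lie in the PHO5 ORF. In short-fragment libraries a nucleosome sat at -77.5 bp (median, range -107 to -60), and another at -520 bp lay inside PHO5. Between them relative coverage was low: nucleosome 2, centred at -359 bp, had 0.641 and 0.735 without OsTIR1, 0.517 and 0.485 in untreated OsTIR1, and 0.222 and 0.323 with auxin. In long-fragment libraries the same window held 2.05 and 2.75 without OsTIR1, 2.33 in untreated low replicate 1, 0.993 in untreated high replicate 2 and 1.73 with auxin. Each long-fragment value exceeded each short-fragment value.

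PHO8, the vacuolar alkaline phosphatase, lies on chromosome IV at 1418550 to 1420250. CWC21 ends 180 bp upstream, so 408 of the 600 promoter bp are CWC21 coding sequence, and nucleosomes 2 and 3 are centred in that ORF. In the short-fragment libraries the space between the ORFs held a narrow hollow at -167 to -154 bp, with relative coverage of 0.129 to 0.235. The lowest point there was 0.430 to 0.599 in the long-fragment libraries, at -177 to -162 bp. Nucleosome 1, between this hollow and the start codon, had 1.11 and 1.16 without OsTIR1, 1.06 and 1.07 in untreated OsTIR1, and 0.946 and 0.849 with auxin in short-fragment libraries. Within 50 bp of the centre of nucleosome 1, coverage was highest at the edge in both short-fragment auxin libraries. In all 4 others the highest point lay inside.

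PHO84, the high-affinity proton-coupled phosphate transporter, lies near one end of chromosome XIII at 24037 to 25800. The ORF YML122C ends 237 bp upstream and covers the remaining 363 bp of the promoter. Nucleosome 2, at -165.5 bp (median, n = 6), and nucleosome 3, at -333.5 bp, stood at an even distance of 163 bp (range 155 to 174). Nucleosome 2 had 1.20 and 1.34 without OsTIR1, 1.32 and 1.04 in untreated OsTIR1, and 1.23 and 1.20 with auxin. The window at -462 bp was a hollow, with 0.249 to 0.342 in the 6 short-fragment libraries and 0.693 to 0.985 in the long-fragment ones.

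PHO89, the sodium-coupled phosphate transporter, lies on chromosome II at 796798 to 798522. It has 1600 bp of intergenic DNA upstream. In short-fragment libraries nucleosome 3 stood at -326 bp in 5 of 6 libraries and at -330 bp in the other, and nucleosome 2 at -186 to -180 bp, so these were the most narrowly placed of its array. They were 140 to 147 bp apart. Beyond them coverage nearly vanished. The window at -583 bp held 0.0637 and 0.131 without OsTIR1, 0.0865 and 0.0724 in untreated OsTIR1, and 0.0507 and 0.0831 with auxin. In the long-fragment libraries the same window held 1.49 and 1.46 without OsTIR1, 1.52 in untreated low replicate 1, 0.934 in untreated high replicate 2 and 1.28 with auxin. The 2 kinds of library did not overlap at this window, which was nearly empty in one and near or above the average in the other.

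**Figure D2:**
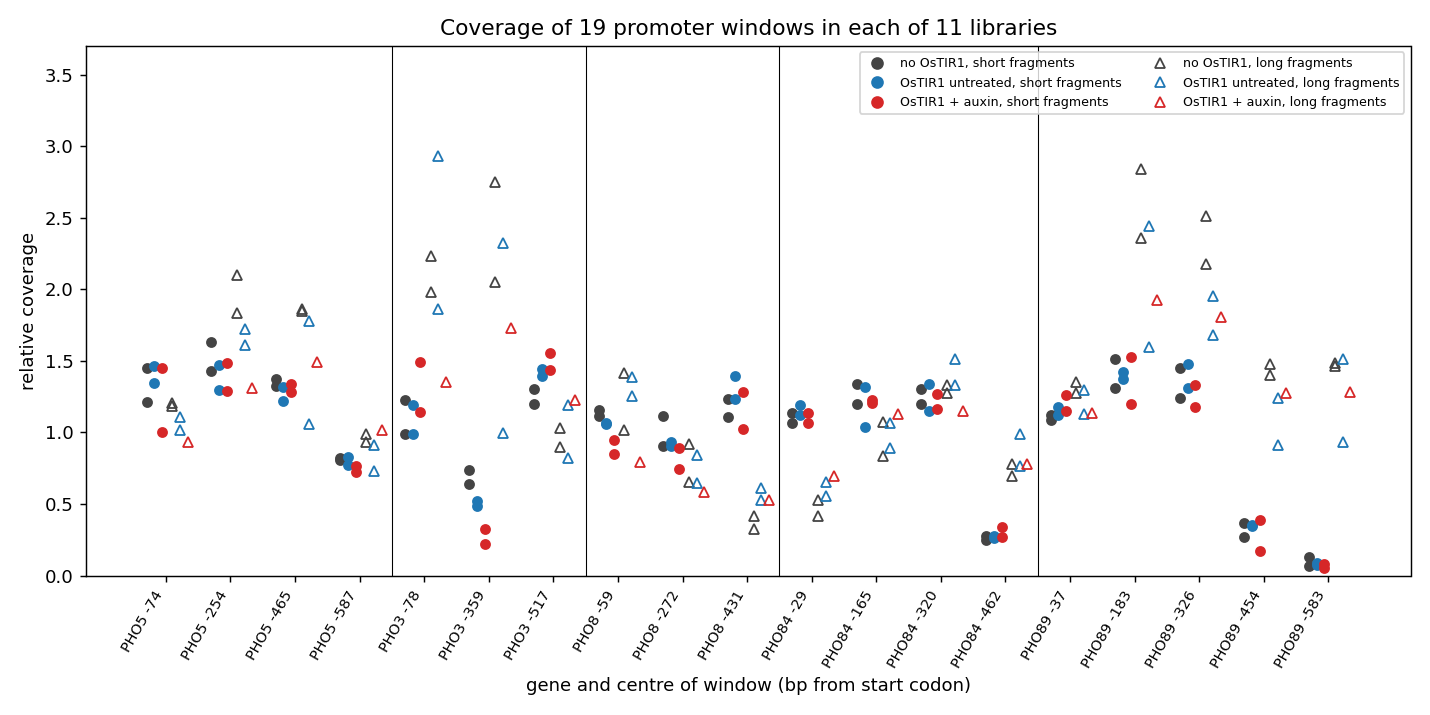
Relative coverage (y axis) of each of the 19 promoter windows (x axis, gene and distance of the centre from the start codon in bp), one point per library, with filled circles for the 6 short-fragment and open triangles for the 5 long-fragment libraries, coloured by state. At PHO89 -583 the circles lie between 0.0507 and 0.131 and the triangles between 0.934 and 1.52.

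Promoter profiles were more alike within a kind of digestion than between kinds. As a description, over 600 bp the profiles of 2 short-fragment libraries had a median Pearson r of 0.897 (15 pairs) for PHO5, 0.942 for PHO3, 0.934 for PHO8, 0.959 for PHO84 and 0.982 for PHO89. Between a short- and a long-fragment library (30 pairs) the medians were 0.535, -0.19, 0.370, 0.569 and 0.638. Pairs share libraries, and neighbouring bases share fragments. Within the short-fragment libraries, pairs of an auxin and an untreated library had medians of 0.897, 0.957, 0.943, 0.890 and 0.956 in the same gene order, beside 0.896, 0.948, 0.926, 0.965 and 0.991 for pairs of the same state.

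The first comparison asked how nuclease-sensitive these promoters are. At the high dose the promoters of PHO3 and PHO89 held about 0.518 and 0.502 of their low-dose coverage (on the scale with the pseudocount), PHO5 lost less, and the differences at PHO8 and PHO84 did not pass the test. Promoter differences were -0.95 (SE 0.08) on the log2 scale for PHO3, -0.99 (SE 0.09) for PHO89 and -0.36 (SE 0.08) for PHO5 (limma, Benjamini-Hochberg adjusted p 3.62e-08, 4.76e-08 and 0.00046). PHO8 had 0.18 (95% interval -0.02 to 0.38, adjusted p 0.0904) and PHO84 -0.13 (interval -0.30 to 0.04, adjusted p 0.14). So 3 of 5 promoters were called lower and 0 higher, where 75.7% of all 5973 promoters tested were called lower and 6.63% higher, with a median of -0.51. The share of the 5 genes is near that background, and PHO8 stood higher than 93.2% of promoters. The upstream ORF covers 408 bp of the PHO8, 363 bp of the PHO84 and 154 bp of the PHO3 promoter. Its part in these differences was not tested. Without no-OsTIR1 low replicate 1 the PHO8 promoter passed the test as higher (0.28, adjusted p 0.00755), while its sign turned in the nearest 250 bp (-0.22, adjusted p 0.0851) and relative to the median ORF (-0.17, adjusted p 0.108). In the nearest 250 bp PHO84 was higher at the high dose, by 0.41 (adjusted p 0.00169), and the PHO5 difference was -0.09 (adjusted p 0.458).

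The promoter values show how far the doses were apart. The PHO89 promoter had relative coverage of 1.84 and 2.05 in the low-dose libraries without OsTIR1 and 0.817 and 0.956 in the high-dose ones. The matching untreated OsTIR1 libraries had 1.76 (low) and 0.914 (high), and auxin high replicate 2 had 0.920. The PHO5 promoter had 1.45 and 1.53 against 1.09 and 1.10 without OsTIR1, and 1.30 against 1.06 in untreated OsTIR1. Low- and high-dose libraries did not overlap for either promoter. The PHO8 promoter had 0.912 and 0.678 against 0.895 and 0.944, and 0.780 against 0.869, so its doses did overlap. Among the 4 libraries left out of the fit, both with short fragments lay beyond both with long fragments, in the direction of the fitted difference, for 3 of the 3 promoters, 4 of the 4 ORFs and 10 of the 13 windows called. The 3 windows where they did not were PHO5 nucleosome 3, PHO3 nucleosome 1 and PHO84 nucleosome 2.

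Resolved to single windows, the largest losses at the high dose were in the hollows of PHO89, PHO3 and PHO84, and some nucleosomes rose. The hollows were named for low coverage in short-fragment libraries, which include the high-dose side of this fit. Their low coverage and their loss are thus not separate findings. The test called 13 of 19 windows, 8 lower and 5 higher, where 45.6% and 25.6% of all 19751 windows were called lower and higher. Because the windows were found in high-dose libraries, they are biased toward places covered at that dose. The outermost PHO89 window differed most, by -3.05 (SE 0.14, adjusted p 6.82e-08), and 6.11% of all windows had a lower value. The PHO89 window at -454 bp differed by -1.78, PHO3 nucleosome 2 by -1.76 and the PHO84 window at -462 bp by -1.32 (limma adjusted p 1.87e-06, 2.90e-06 and 7.61e-06). PHO89 nucleosomes 2 and 3 fell by 0.82 and 0.63, and PHO3 nucleosome 1 fell by 0.78.

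Of the 3 PHO5 nucleosomes, 1 passed the test. Nucleosome 3 fell by 0.46 (SE 0.11, adjusted p 0.00369). Nucleosome 2 had -0.27 (interval -0.54 to 0.01, adjusted p 0.0732) and nucleosome 1 had 0.22 (interval -0.05 to 0.49, adjusted p 0.134). PHO8 nucleosome 3, inside CWC21, rose by 1.26 (SE 0.14, adjusted p 3.58e-05), more than 97.9% of windows, and PHO84 nucleosome 1, over the start codon, rose by 0.95 (adjusted p 0.000141). The smaller rises of PHO3 nucleosome 3 (0.31), PHO8 nucleosome 2 (0.38) and PHO84 nucleosome 2 (0.35) had adjusted p of 0.0319, 0.0375 and 0.0318. These 3 calls are marginal. Each was lost when any 1 of several libraries was left out, while the differences stayed positive. PHO3 nucleosome 3 lost its call without either high-dose library or low replicate 2 of the strain without OsTIR1, and without low or high replicate 1 of untreated OsTIR1 (adjusted p 0.0656 to 0.118). PHO8 nucleosome 2 lost it without replicate 2 of the strain without OsTIR1 at either dose, or without either untreated library (0.0984 to 0.169). PHO84 nucleosome 2 lost it without low replicate 1 or either high-dose library of the strain without OsTIR1, or without either untreated library (0.0656 to 0.122).

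The ORFs moved the other way. Relative coverage was higher at the high dose in PHO84 by 0.82 (SE 0.07), PHO5 by 0.70 (SE 0.06), PHO8 by 0.58 (SE 0.05) and PHO3 by 0.47 (SE 0.06), each with a limma adjusted p of at most 0.000173. PHO89 had 0.10 (interval -0.01 to 0.21, adjusted p 0.0828). That is 4 of 5 called higher, beside 73.4% of all 5972 ORFs and a median of 0.36. The PHO84 ORF had 0.599 and 0.504 in low-dose and 1.11 and 1.07 in high-dose libraries without OsTIR1, while the PHO89 ORF had 1.16 and 1.08 against 1.21 and 1.24. The median ORF itself shifted by 0.39 with dose. Set against the median ORF, PHO89 was lower by 0.26 (difference -0.26, adjusted p 0.000839), the other 4 ORFs stayed higher (0.13 to 0.48), the PHO84 promoter passed the test at -0.49, the members' calls became 0 promoters higher and 4 lower, and 2 windows were called higher and 13 lower. Over all features that scaling gave 2156 ORFs higher and 2138 lower, 2594 windows higher and 12439 lower, and 77 promoters higher and 5501 lower.

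**Figure D3:**
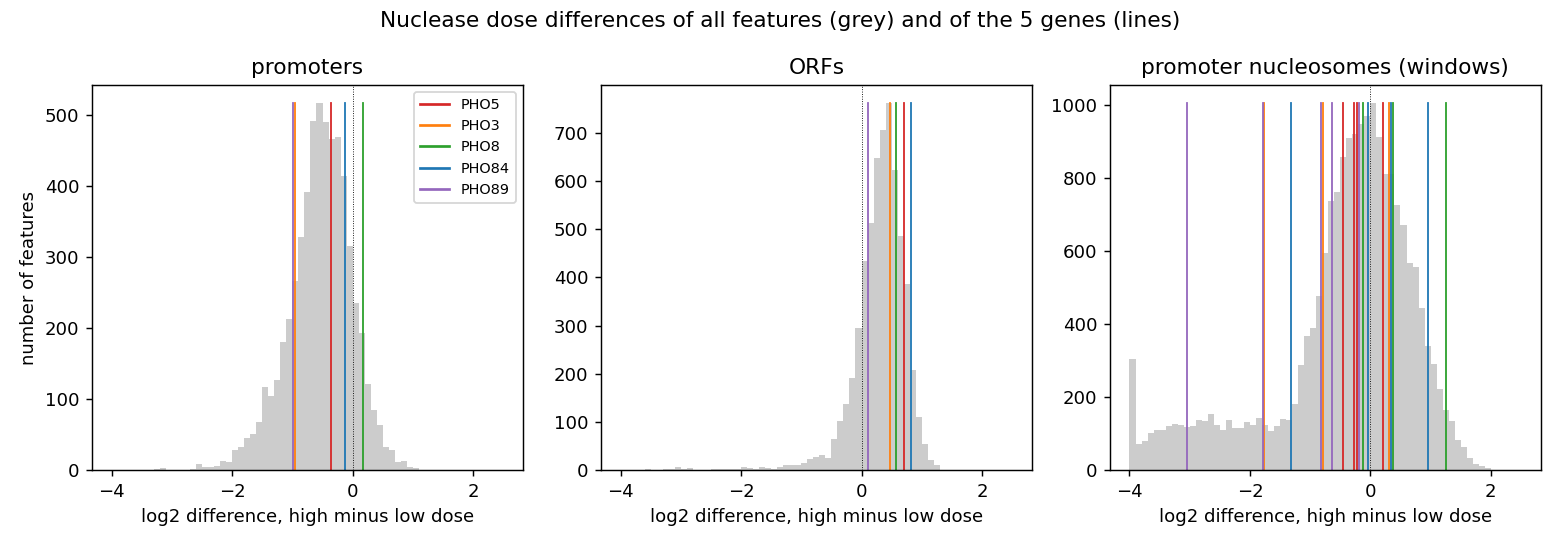
Number of features (y axis) by log2 difference in relative coverage between high and low nuclease dose (x axis, bins of 0.1) for all promoters, ORFs and promoter nucleosome windows (grey; windows below -4 are in the first bin), with a coloured line for each feature of the 5 genes. The PHO8 promoter at 0.18 lies to the right and the PHO89 window at -3.05 in the left tail.

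The second comparison asked whether the promoter nucleosomes changed when auxin was given to the OsTIR1 strain. No promoter, ORF or nucleosome of the 5 genes passed the test. In short-fragment libraries the promoter differences between auxin and untreated OsTIR1 were -0.03 for PHO5, -0.05 for PHO3, -0.16 for PHO8, 0.13 for PHO84 and -0.07 for PHO89, with 95% intervals reaching from -0.34 (PHO8) to 0.33 (PHO84). The lowest limma adjusted p among them was 0.436, for PHO8. Thus 0 of 5 promoters, 0 of 5 ORFs and 0 of 19 windows were called, where 0.402% of promoters, 3.15% of ORFs and 1.15% of windows were called over all features. At an unadjusted p under 0.05 the counts were 0, 0 and 1. With backgrounds this low, 0 calls among so few features is no result about the 5 genes, and the intervals are the more useful measure.

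**Figure D4:**
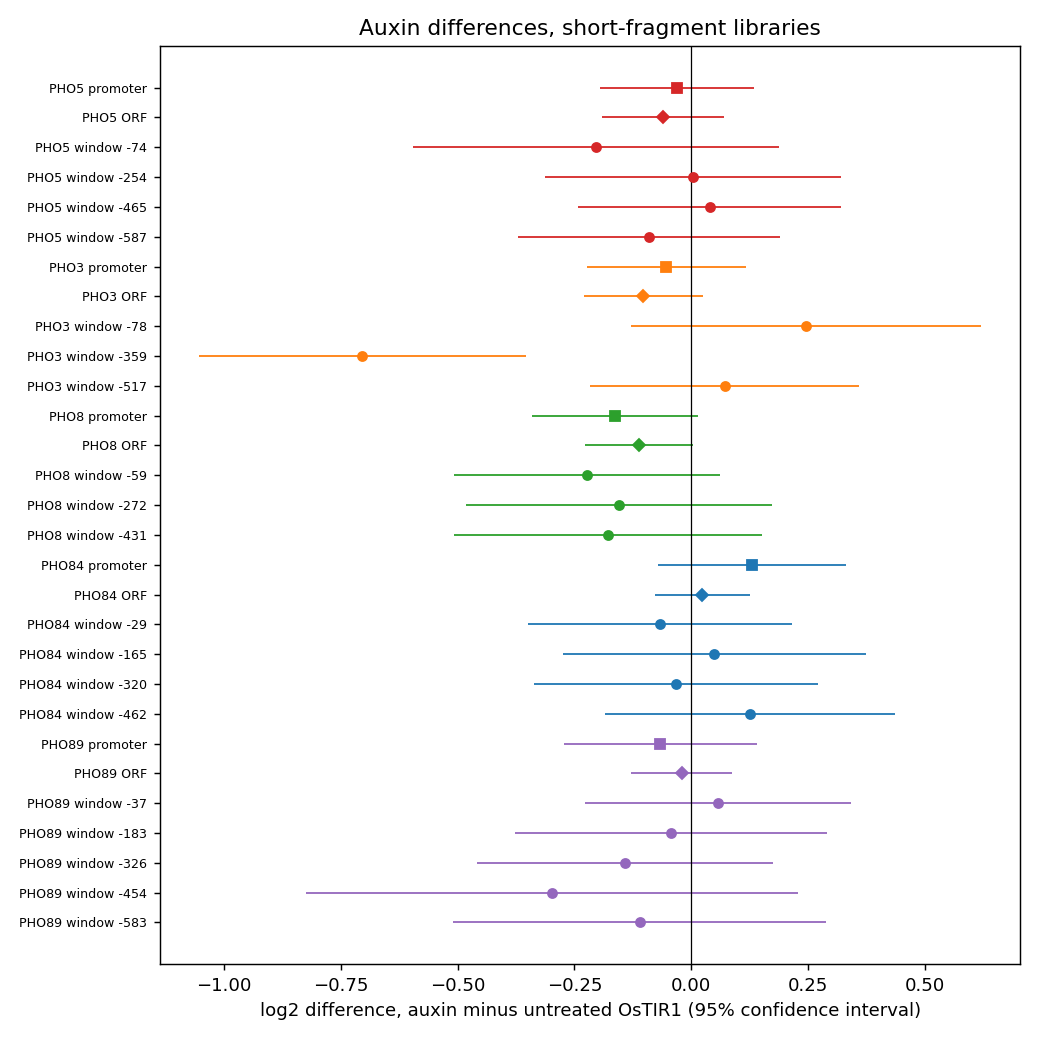
Log2 difference in relative coverage between auxin and untreated OsTIR1 in the short-fragment libraries (x axis, with 95% confidence intervals from limma) for the promoter (square), ORF (diamond) and each window (circle) of the 5 genes. All intervals cross 0 except that of the PHO3 window at -359 bp, at -0.70.

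The 3 PHO5 nucleosomes were resolved in both short-fragment auxin libraries. Their maxima stood at -80, -252 and -476 bp in auxin low replicate 1 and at -80, -254 and -469 bp in auxin high replicate 2. In untreated OsTIR1 they stood at -79, -252 and -474 bp, and at -82, -254 and -466 bp. Auxin differences of the 3 nucleosomes were -0.20 (95% interval -0.60 to 0.19), 0.00 (-0.31 to 0.32) and 0.04 (-0.24 to 0.32) from the start codon outward. The hollow between nucleosomes 2 and 3 held 0.294 and 0.392 with auxin and 0.260 and 0.302 without.

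The window nearest to the threshold was PHO3 nucleosome 2, between PHO5 and PHO3, whose short-fragment auxin libraries lay below both untreated ones. This window is one of the hollows and not a well-formed nucleosome. It held only 0.222 to 0.735 in the short-fragment libraries, with maxima from -370 to -320 bp. Its difference was -0.70 (SE 0.16, 95% interval -1.05 to -0.35) with an unadjusted p of 0.00117 and a limma adjusted p of 0.073, and 0.127% of all windows had a lower value. Mean fragment length was 129.0 and 129.3 bp with auxin, 131.1 and 132.4 bp untreated and 133.6 and 140.3 bp without OsTIR1. State and fragment length go together in these 6 libraries and cannot be told apart. With mean fragment length as a covariate the difference was -0.64 (adjusted p 0.161). In the long-fragment libraries it was 0.17, with the untreated library of disputed auxin state included. That sign rests on the disputed library: auxin had 1.73, beside 0.993 in the disputed library and 2.33 in untreated low replicate 1. Without auxin high replicate 2, auxin is a single library, assumed to vary like the other groups. The difference was then -0.90 (adjusted p 0.0158), and PHO89's window at -454 bp also passed (-0.71, adjusted p 0.03), but so did 2802 of all 19751 windows, in place of 227. Over 20 alternatives the adjusted p of PHO3 nucleosome 2 ran from 0.0158 to 1.00, and 3 were under 0.05.

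The difference between auxin effects in long- and short-fragment libraries was tested as an interaction in 10 libraries, without the one of disputed auxin state. It called 0 of 5 promoters, 0 of 5 ORFs and 0 of 19 windows (limma), as it did over all features, where 529 promoters, 1189 ORFs and 1987 windows reached an unadjusted p under 0.05. For the members that count was 0, 0 and 1, the last being PHO3 nucleosome 1 (-0.68, adjusted p 0.496). In the long-fragment class this compares 1 auxin library with 1 untreated library, so the interaction rests on that pair. The untreated OsTIR1 strain and the strain without OsTIR1 were compared in the short-fragment libraries. Again limma called 0 promoters, 0 ORFs and 0 windows of the 5 genes (lowest adjusted p 0.998), beside 2 promoters, 1 ORF and 3 windows over all features (0.0335%, 0.0167% and 0.0152%). PHO3 nucleosome 2 alone had an unadjusted p under 0.05 (-0.39, unadjusted p 0.0329). The windows were found in the same libraries without OsTIR1 that enter this fit, so window values are biased upward in that group. The window differences between strains are therefore not free of that choice.

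Other genes of the pathway gave a wider view. A list of 23 held 8 genes entered as regulators (among them PHO4, PHO2, PHO80, PHO85, PHO81 and PHO86). It also held 2 further secreted acid phosphatases (PHO11 and PHO12) and 4 transporters (PHO87, PHO90, PHO91 and GIT1). The rest were the 4 polyphosphate synthesis genes VTC1 to VTC4, and 5 others (PHM6, PHM7, PHM8, SPL2 and PHO92). With dose, 22 of the 23 promoters were called lower and 0 higher, with a median of -0.67, beside 75.7% called lower and a median of -0.51 over all promoters. All 5 in the last group were lower (median -1.30), led by PHM8, a nucleotide phosphatase (-2.55, limma adjusted p 1.61e-11). PHO91, the vacuolar phosphate transporter, followed at -1.75. At the other end stood GIT1, a glycerophosphoinositol transporter (-0.31, adjusted p 0.00211), and PHO86, an endoplasmic reticulum protein needed for the exit of Pho84, which did not pass the test (0.04, adjusted p 0.644). Of the 23 ORFs, 17 were called higher and 3 lower (median 0.34), beside 73.4% called higher and a median of 0.36 over all ORFs. PHO11 and PHO12 had close values with dose (promoters -0.67 and -0.62, ORFs 0.75 and 0.78). How fragments that match both were placed is not given in the sources used here, so they may not be separate cases.

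With auxin, 0 of the 23 promoters and 0 of the 23 ORFs were called, beside 0.402% and 3.15% over all features. The lowest promoter differences were those of PHM8 (-0.31, limma adjusted p 0.374) and PHM6 (-0.16), and the highest those of PHO85, the kinase (0.19), and PHO91 (0.19). The median over the list was 0.02, beside 0.00 over all promoters.

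Promoters that tracked each gene across the 11 libraries were found by Pearson r, as a description, since the points share digestion. For PHO89 the closest were LEU9 (r = 0.998), YHL009W-B and YHL009W-A (both 0.996), and 3006 of 5972 promoters had r above 0.9. YHL009W-B and YHL009W-A share a chromosome, a locus number and the same r, so they may not be separate promoters. PHO3 was closest to IZH1 and ERV15 (both 0.998) and CYB5 (0.997), with 3304 above 0.9. PHO5 was closest to SPP381 (0.997), APL5 (0.982) and VMR1 (0.981), with 793 above 0.9. PHO8 and PHO84 had few like them. For PHO8, SIP2 (0.967), PPM1 (0.959) and REI1 (0.938) were among 6 promoters above 0.9, and for PHO84, MUM3 (0.948), VMA1 (0.934) and DSN1 (0.917) were among 4.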

How the data were processed

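MNase-seq coverage was analysed in 11 libraries, grouped by their labels. Each deposited file holds, for 17 contigs, the number of fragments over every base (coverage, a signal) and the number of fragments of the contig, for fragments of 95 to 225 bp, per the file headers. Bowtie2 and sacCer3 are named in the submitters' processing notes. The handling of duplicates and multiple matches is not given in the sources used here. Contig lengths matched assembly R64, whose RefSeq annotation gave gene positions. The start-codon profile of each of the 16 chromosomes lay within 9 bp of the others (median shift 3 bp). Of 6002 genes, 5975 were measured, after removal of genes closer than 1000 bp to a contig end and of those at the rDNA.

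Coverage was divided by the nuclear mean without the rDNA. Profiles were smoothed over 21 bp to find maxima, and windows covered 50 bp to each side. Features with a mean of at least 0.1 were tested on log2(relative coverage + 0.1), which understates changes of low features, with limma 3.58.1 (lmFit, eBayes) in R 4.3.3. The p-values are two-sided and Benjamini-Hochberg adjusted over all features of a kind, with a threshold of 0.05. The dose fit had a term for state, the auxin and strain fits state alone, and the interaction fit state, fragment class and their product. Scripts were tested on simulated data. Tables were made in Python 3.11.15 with numpy 2.4.6 and pandas 2.3.3, and drawn with matplotlib 3.10.9. Alternatives changed the pseudocount, filter, scaling, eBayes settings, replicate block, promoter length, window width, covariates and libraries. The 5 genes were always named. Of the lists, the genes named were the 2 highest and 2 lowest promoters with dose and with auxin, and of the genome the 3 most alike each member. The members and lists were chosen with earlier results of these data known. Promoter sequences were not used here.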

Additional observations from a re-analysis of the deposited data

How the results depend on the processing

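With all 11 libraries under their labels as given, the dose comparison called 0 promoters, 0 ORFs and 0 windows of the 5 genes, in place of 3, 4 and 13. Deviations of short-fragment libraries from their group means correlated at -0.31, -0.04 and -0.17 over promoters between the 3 pairs of states. Libraries of the same replicate number thus showed no shared deviation. Each state gives only 1 such difference, so this cannot show whether the untreated and auxin portions of the divided culture were paired. With the replicate block limma called 1 auxin window, PHO3 nucleosome 2, in place of 0. With the numbers crossed in untreated OsTIR1, which was added after seeing the data, it was also 1. Leaving out 1 library at a time gave 0 to 2 auxin windows. Values that reversed, and were called on at least one side of the change, were the PHO84 promoter with dose at 250 bp (0.41) and, scaled to the median ORF, the PHO89 ORF (-0.26), PHO3 nucleosome 3 (-0.044) and PHO84 nucleosome 2 (-0.0083). Values that changed sign and were called on neither side included the PHO8 promoter (-0.22 at 250 bp and -0.17 with the median ORF) and PHO5 nucleosome 1 (-0.14 with the median ORF). The median ORF scaling subtracts the rise of the median ORF. The cause of the other changes was not tested.

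Over all features the auxin counts also changed: 24 promoters, 188 ORFs and 227 windows became 0, 0 and 0 with labels as given, 0, 0 and 0 in the long-fragment libraries and in the 7 libraries of the dose fit, and 565, 1157 and 2802 without auxin high replicate 2. Without untreated low replicate 2 they were 13, 0 and 0. The block gave 52 promoters, the crossed block 37 promoters, 328 ORFs and 426 windows. A pseudocount of 1 left 8 promoters and 0 windows, trend and robust eBayes 7 promoters and 81 windows, and the fragment-length covariate 9 ORFs. In the strain and interaction comparisons no alternative called any of the 29 features of the 5 genes. The mean coverage of a library was at least 111 fragments per nuclear base, while the PHO89 window at -583 bp rests on few fragments per base in short-fragment libraries.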

Other observations

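Just beyond the PHO84 promoter, at -610 bp, relative coverage was 3.15 in auxin low replicate 1 and 1.61 to 2.04 in the other 5 short-fragment libraries. The second short-fragment auxin library had 1.76. This place was picked after its values were seen, so no test was run.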
